A study of Mus musculus with 2 samples.

Results

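The transcripts of 38 genes of amino acid supply and amino acid sensing were followed in OT-I cells, CD8+ T cells whose transgenic T cell receptor recognizes the SIINFEKL peptide of ovalbumin. Of these genes, 20 encode cytosolic aminoacyl-tRNA synthetases and 18 belong to the response that the transcription factor ATF4 drives, or to serine synthesis and one-carbon metabolism. They were selected by gene symbol for their known roles, by a rule that uses no expression value but was written with earlier results of these data known. All 38 were found among the 14732 symbols listed for at least 1 library. The comparison asks how these genes stood when Eomes, a T-box transcription factor of effector and exhausted CD8+ T cells, was overexpressed.

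Both groups of cells came from the spleen and lymph nodes of C57BL/6 mice with the OT-I transgene, 6 to 8 wk old. The cells were stimulated for 24 h with 2.5 ng/mL peptide and 10 U/mL IL-2 and then received a retrovirus (RVKM) with an IRES-hCD2 cassette. The virus carried *Eomes* for the Eomes-overexpressing cells and was the empty vector for the control cells. Cells with human CD2 on the surface were sorted 48 h later and restimulated for 3 days with peptide and IL-2 at the same doses, at 40000 cells per well. *Eomes* was therefore driven by a viral vector and not by its own locus, and how many mice gave cells to each library is not given in the sources used here.

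Each group was 1 library of RNA-seq, called the control library and the Eomes library here. No difference below has a replicate check, and there is no test between the conditions. Expression is given as RPKM, reads scaled to the length of the transcript and the depth of the library, so levels of different genes can be compared. Differences are log2 ratios of Eomes-overexpressing over control, with a change of 1.5-fold (0.58 on the log2 scale) as the threshold. Intervals in parentheses are 95% counting intervals. They come from approximate reads, cover counting error only and compare these 2 libraries, not the conditions.

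Aminoacyl-tRNA synthetases join each amino acid to its tRNA and so feed the ribosome. When amino acids run short, uncharged tRNA activates the kinase GCN2, which phosphorylates the translation factor eIF2α. General translation is then lowered while the *Atf4* mRNA is translated more, and ATF4 protein raises transcription of synthetases, of amino acid transporters and of enzymes for asparagine, serine, proline and one-carbon units. ATF4 is set mainly by translation and protein stability, so its mRNA is not a measure of its activity. Activated T cells use serine and one-carbon metabolism to make nucleotides, and they take up amino acids at a high rate.

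The libraries were of like depth, about 19550000 reads for control and 19700000 for Eomes, as read from the spacing of low values. *Eomes* itself was at an RPKM of 2.47 in the control library and 129.6 in the Eomes library. All 7 CD8 T cell markers were listed, with a summed RPKM of 1521 in the control library and 1143 in the Eomes library. Of these, *Cd8a* (181.8 and 99.1, 1.83-fold lower) and *Cd2* (265.3 and 170.85, 1.55-fold lower) were past 1.5-fold. The summed markers of CD4 T cells (0.53 and 0.23), B cells (2.87 and 1.62), macrophages or monocytes (4.08 and 5.87) and erythroid cells (0.19 and 0.03) were low. The NK cell sum (0.31 and 5.74) came from *Klrb1c* alone, which was 18.5-fold higher in the Eomes library, from about 14 and 270 reads. *Ms4a1*, *Ighm*, *Pax5*, *Lyz2*, *Csf1r*, *Adgre1* and *Ncr1* were not listed. The 6 dendritic cell markers summed to 32.3 and 11.9, mostly from the class II genes *Cd74* and *H2-Ab1*. The part of these marker differences in the values below was not tested.

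All 38 genes were above an RPKM of 1 in both libraries, and most stayed close to their control level. The change was within 10% for 25 of 38 genes, 13 of 20 synthetases and 12 of 18 response genes. It was also within 10% for 4479 of 9925 expressed genes (those that reached an RPKM of 1 in 1 library or both). In the range of mean RPKM of the synthetases this was 1298 of 2207 expressed genes. In the range of the response genes it was 3853 of 7688. Closeness to control was thus common and not particular to the members. *Ddit4* and *Nupr1* were more than 1.5-fold lower in Eomes-overexpressing OT-I cells, and no member was more than 1.5-fold higher. Among all 9925 expressed genes, 5.19% were more than 1.5-fold lower, 2.46% were more than 1.5-fold higher, and 7.65% were past the threshold in either direction. The 2 of 38 members past it (5.26%) are thus near the background, and the count of members is no result about them. After each log2 ratio was centred on genes of like GC content, 1 of 38 members (*Ddit4*, 2.63%) was past 1.5-fold lower and 0 higher, beside 4.89% and 1.92% of all expressed genes. The median log2 ratio was -0.05 over the 38 genes and -0.0037 over all expressed genes.

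**Figure D1:**
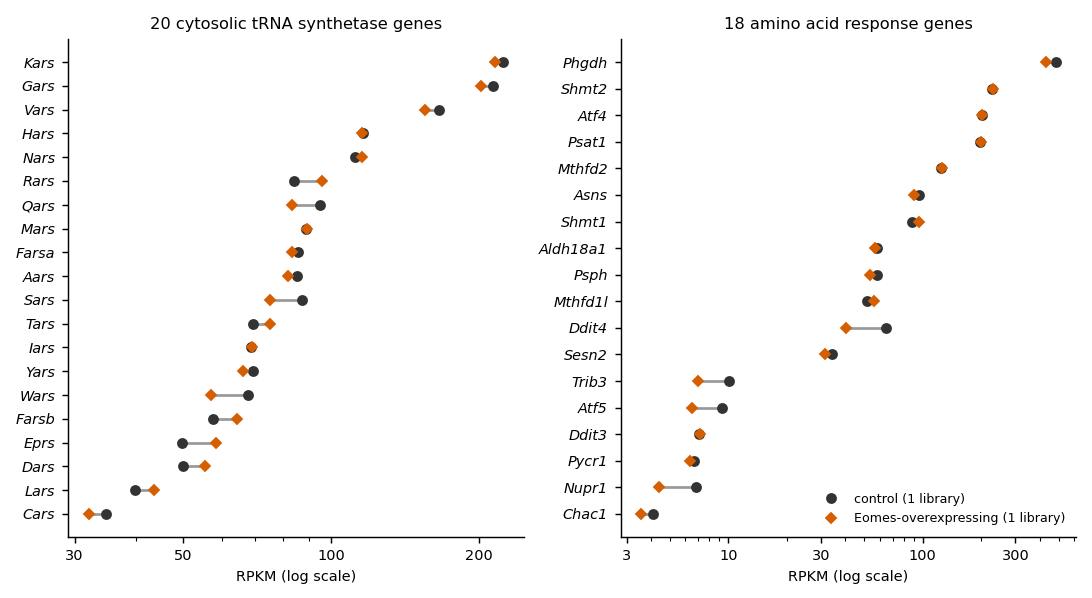
RPKM (log axis) of the 20 cytosolic tRNA synthetase genes (left) and the 18 amino acid response genes (right), with 1 point for the control library (circles) and 1 for the Eomes-overexpressing library (diamonds), ordered by mean RPKM and with no error bars since each group is 1 library. The paired points lie close together for most genes, and the widest gap is at *Ddit4*, 64.5 in the control library and 40.4 in the Eomes library.

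ATF4 reaches many of these genes through the C/EBP-ATF response element (CARE), so the promoters of the members were searched for its letters. RefSeq promoters (GRCm38.p6, 250 bases before to 50 bases after the start) were matched for 31 of the 38 genes. *Cars*, *Hars*, *Lars*, *Nars*, *Rars*, *Vars* and *Wars* had no entry. The letters TGATGNAA, in which N is any base, were sought on both strands. They occurred in 10 of 31 member promoters (32.3%), in 5 of 13 synthetase promoters and in 5 of 18 response gene promoters. These letters were held by 4.51% of all 27025 genes with a RefSeq promoter and by 2.70% of 7938 expressed ones. Members were matched to RefSeq by symbol or synonym, but expressed genes by symbol alone, so renamed genes are missing from the 7938. Since members were selected for known roles, many in the ATF4 response, their higher share is no result about them. The match nearest the start of each of the 10 genes is printed as a window of 30 bases, with the matched letters in capitals and each window given 5′ to 3′ on the strand named, to show where the letters fall and what surrounds them.
*Aars*, chr8:111033840-111033869, minus strand: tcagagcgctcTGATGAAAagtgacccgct
*Gars*, chr6:55037960-55037989, minus strand: cgcccggtgcaTGATGAAAtagcgcagcca
*Iars*, chr13:49682126-49682155, minus strand: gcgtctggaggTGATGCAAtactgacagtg
*Tars*, chr15:11399655-11399684, plus strand: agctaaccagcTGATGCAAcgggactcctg
*Yars*, chr4:129189895-129189924, plus strand: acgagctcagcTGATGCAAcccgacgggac
*Asns*, chr6:7693214-7693243, minus strand: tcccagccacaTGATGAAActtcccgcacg
*Chac1*, chr2:119351038-119351067, minus strand: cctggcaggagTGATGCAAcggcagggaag
*Nupr1*, chr7:126625562-126625591, plus strand: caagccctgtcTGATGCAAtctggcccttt
*Pycr1*, chr11:120643833-120643862, minus strand: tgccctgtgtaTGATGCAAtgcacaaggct
*Trib3*, chr2:152344028-152344057, plus strand: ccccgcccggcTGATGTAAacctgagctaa

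In the GENCODE vM21 annotation, 5 of these 10 windows lay inside an annotated exon of their gene, 2 lay partly in one and 3 lay upstream of the gene. RefSeq and GENCODE place the start of *Nupr1* differently, and its window, which is upstream of the RefSeq start, lies inside the gene and downstream of the GENCODE start. Starts differ at other genes too. The *Asns* letters are 23 bases before the RefSeq start, yet their window lies in a GENCODE exon. Those of *Aars* are 10 bases after the RefSeq start, while the GENCODE gene begins at chr8:111033144. The base after TGATG was C in most windows, A in those of *Aars*, *Gars* and *Asns*, and T in *Trib3*. A match is a stretch of letters and not a measured binding site. The median log2 ratio of the 10 genes with these letters was -0.08 (range -0.65 to 0.12), and 1 of them, *Nupr1*, was past 1.5-fold. For the 21 members with a promoter and without the letters it was 0.0014 (range -0.67 to 0.23), and 1 of them, *Ddit4*, was past 1.5-fold. Both groups spanned 0 and their ranges overlapped.

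Eomes recognizes the T-box element, and the letters AGGTGTGA were sought in the same way. Among the 31 member promoters only that of *Atf4* held them (3.23%, against 1.48% of all genes and 1.02% of expressed genes with a promoter). This share rests on 1 promoter and is no result about the members. A search for exact letters near the start does not reach sites further away, and it cannot show which members Eomes binds. The window lies upstream of *Atf4* in GENCODE, and the same promoter held no CARE letters.
*Atf4*, chr15:80254971-80255000, plus strand: caagagatggcAGGTGTGAcagtctggcgc
*Atf4*, which carries this window, had an RPKM of 200.6 in the control library and 200.8 in the Eomes library.

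All 20 synthetase genes were well expressed, and *Kars* stood 6.46-fold above *Cars* in the control library and 6.73-fold in the Eomes library. In control OT-I cells their RPKM ran from 34.7 for *Cars* (cysteine) to 224.1 for *Kars* (lysine), with a median of 84.8. In Eomes-overexpressing OT-I cells the lowest was again *Cars* at 32.0 and the highest again *Kars* at 215.8, with a median of 78.4. The order was kept at both ends. *Kars*, *Gars* (glycine), *Vars* (valine), *Hars* (histidine) and *Nars* (asparagine) held the same 5 highest ranks in both libraries, and *Lars* (leucine) and *Cars* the lowest. The *Gars* RPKM was 213.7 in the control library and 202.0 in the Eomes library. That of *Vars* was 165.8 and 155.7. Neighbouring ranks in the middle, where 6 genes lay between 84.1 and 94.8 in control, differed by little. *Rars* (arginine) moved 5 places up among the 20, and *Sars* (serine) 4 places down.

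No synthetase was past 1.5-fold, and their log2 ratios lay between -0.25 and 0.23, with 9 above 0 and 11 below. The median was -0.02 and the SD over the 20 genes 0.14. The 2207 expressed genes in the same range of mean RPKM had an SD of 0.26, and 1.99% of them were past 1.5-fold. *Eomes* is among these genes, and their ratios ran from -2.06 to 5.71, which widens that SD. The lower and upper quartiles were -0.08 and 0.12 for the synthetases and -0.12 and 0.10 for these genes. The middle of both sets was thus spread alike. The summed RPKM of the 20 genes was 1865 in the control library and 1834 in the Eomes library, a change of -1.65%, and made up 0.332% and 0.334% of the summed RPKM of each library. Every synthetase had at least 1851 approximate reads in each library, so counting error alone was small. The interval lay above 0 for 6 genes, below 0 for 8 and held 0 for 6. These counts were not set against those of other genes, so they are no result about the synthetases.

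The synthetase furthest up was *Eprs*, which carries both the glutamate and the proline enzyme in 1 chain. Its RPKM was 49.7 in the control library and 58.4 in the Eomes library, a log2 ratio of 0.23 (0.17 to 0.29). *Rars* was at 84.1 and 95.9, a log2 ratio of 0.19 (0.12 to 0.26). Of 500 expressed genes closest to *Rars* in mean RPKM, 88.2% had a lower ratio, so both genes stayed within the usual spread at their level. *Farsb*, the β subunit of the phenylalanine enzyme, was at 57.6 and 64.4, a log2 ratio of 0.16 (0.08 to 0.25). Its partner subunit *Farsa* was at 85.5 and 83.3, a log2 ratio of -0.04 (-0.11 to 0.04). The ratio of *Farsa* to *Farsb* RPKM was 1.49 in the control library and 1.29 in the Eomes library.

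The synthetase furthest down was *Wars*, the tryptophan enzyme, which interferon also induces. Its RPKM was 67.8 in the control library and 57.0 in the Eomes library, a log2 ratio of -0.25 (-0.34 to -0.16). *Sars* was at 87.3 and 75.2, a log2 ratio of -0.22 (-0.27 to -0.16). *Qars* (glutamine) was at 94.8 and 83.3, a log2 ratio of -0.19 (-0.25 to -0.13). These 3 genes lay low among the synthetases but within the spread of genes of like level, of which 10.0%, 11.6% and 15.6% had lower ratios than *Wars*, *Sars* and *Qars*. The remaining synthetases lay between. *Iars* (isoleucine) was at 68.7 and 68.9, *Mars* (methionine) at 88.7 and 89.2, and *Hars* at 116.3 and 115.7. *Aars* (alanine) was at 85.4 and 81.6, *Yars* (tyrosine) at 69.3 and 66.1, and *Nars* at 111.8 and 115.5. *Tars* (threonine) was at 69.4 and 75.2 and *Lars* at 39.9 and 43.5, each with a log2 ratio of 0.12, and *Cars* had a log2 ratio of -0.12.

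Some of these values rest on shared sequence. Of the 50-base stretches of *Aars* 22.4% recur in *Exosc6*, of those of *Farsb* 10.1% in *Sgpp2*, of those of *Iars* 8.61% in *Gm4849* and of those of *Hars* 7.53% in *Hars2*. Reads there could be split between the genes, so the levels of these 4 synthetases are less certain.

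Several synthetases of higher eukaryotes sit in 1 multi-synthetase complex, and others act outside it. The 8 genes of the complex, a grouping taken from textbook knowledge after the values were known, had 6 log2 ratios above 0 and a median of 0.07. The 12 others had 9 below 0 and a median of -0.07. After centring by GC content the medians were 0.0084 and 0.000082, and 4 of 8 and 6 of 12 genes lay above 0.

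**Figure D2:**
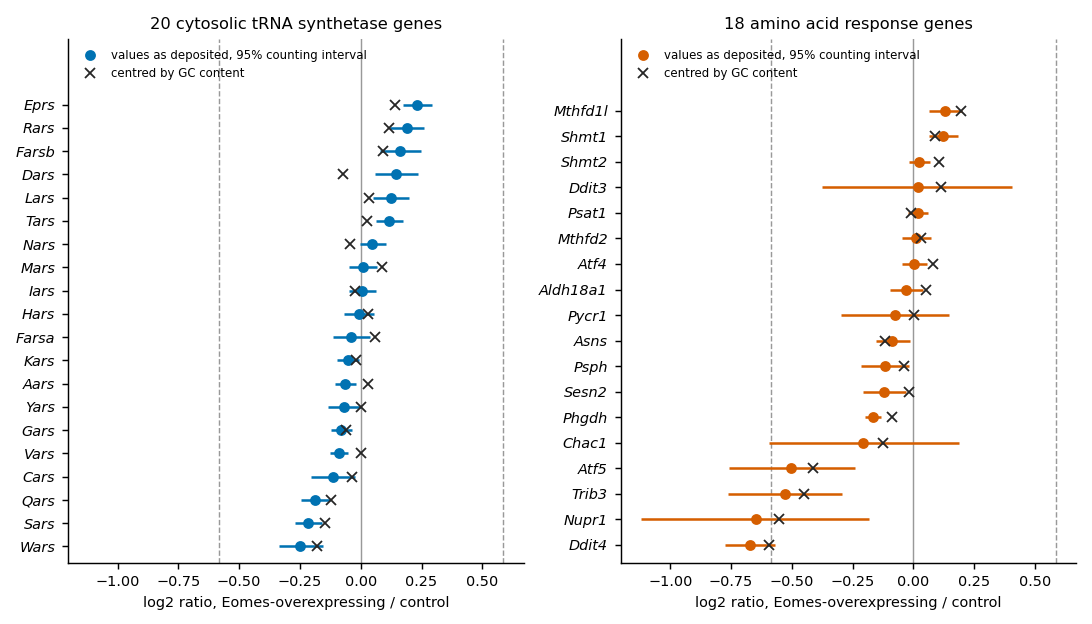
Log2 ratio of Eomes-overexpressing over control for each synthetase gene (left) and each amino acid response gene (right), as deposited (circles with 95% counting intervals as bars) and after centring by GC content (crosses); dashed lines mark 1.5-fold. The synthetases lie within -0.25 and 0.23, while *Ddit4* and *Nupr1* lie past the dashed line on the lower side and *Nupr1* has the wide interval of a gene with few reads.

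The log2 ratios of the synthetases followed the GC content of their transcripts. The 10 synthetases of lowest GC content (41.2 to 50.4%) had 8 log2 ratios above 0 and a median of 0.12. The 10 of highest GC content (50.9 to 60.9%) had 9 below 0 and a median of -0.08. *Dars* (aspartate), the transcript of lowest GC content, had an RPKM of 49.98 and 55.3 and a log2 ratio of 0.15 (0.06 to 0.24). Spearman's rho across the 20 genes was -0.74 and Pearson's r -0.69. Over the 18 response genes these were -0.60 and -0.59, and over 9835 expressed genes -0.44 and -0.30. All points share the same pair of libraries and genes are not replicates, so these are descriptions. When each log2 ratio was centred on the median of expressed genes of like GC content, the genes of low and of high GC content had medians of 0.03 and -0.0089, the SD of the synthetases was 0.09 in place of 0.14, and *Dars* was at -0.07. The part of GC content in the synthetase differences beyond this centring was not tested.

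**Figure D3:**
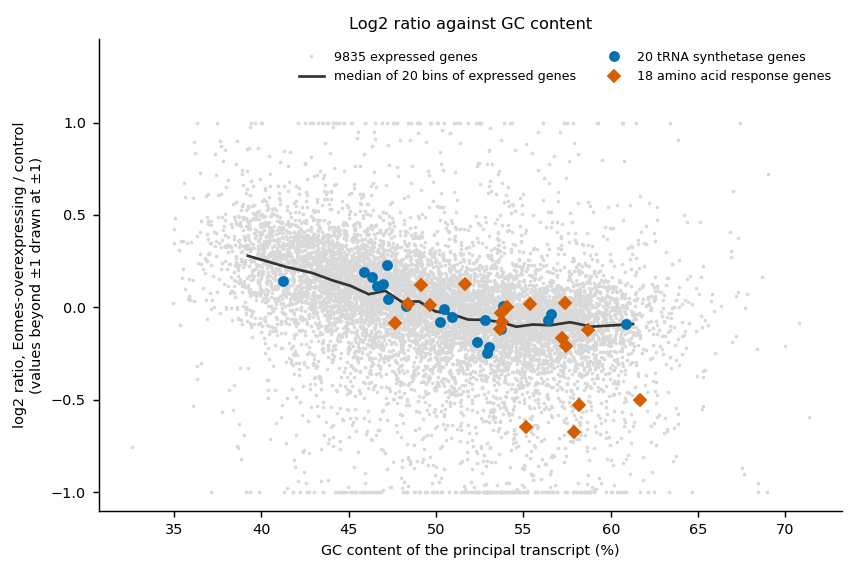
Log2 ratio of Eomes-overexpressing over control against the GC content (%) of the principal transcript, for expressed genes (grey points), their median in 20 bins (line), the 20 synthetase genes (circles) and the 18 response genes (diamonds), with values beyond 1 drawn at the edge. The line falls from low to high GC content, and the synthetases fall along it.

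The transcription factors of the response were uneven. *Atf4* (chr15:80255184-80257541, plus strand) was among the most abundant members, with an RPKM of 200.6 in the control library and 200.8 in the Eomes library, a log2 ratio of 0.0014 (-0.05 to 0.05). *Ddit3*, which encodes the stress factor CHOP, was low in both, at 7.06 and 7.16, a log2 ratio of 0.02 (-0.37 to 0.40). Exons of *Mars* and *Gm4189* together overlap 4.73% of the *Ddit3* exon bases, so its low value is uncertain. *Atf5* (chr7:44812256-44816658, minus strand), a relative of ATF4 that is also translated more when eIF2α is phosphorylated, was at 9.25 and 6.53, a log2 ratio of -0.50 (-0.76 to -0.24). Among the 500 genes of like level 4.6% were lower than *Atf5*, and it did not reach 1.5-fold. Exons of *Il4i1* and *Nup62* overlap 4.11% of the *Atf5* exon bases, so this value is uncertain too.

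The feedback and stress regulators all had log2 ratios below 0, 5 of 5, with a median of -0.53. *Ddit4*, *Nupr1*, *Trib3*, *Chac1* and *Sesn2* make up this group, and *Ddit4* was the member with the largest difference. Of all 9925 expressed genes, 5010 lay below 0. After centring by GC content the 5 ratios ran from -0.59 for *Ddit4* to -0.02 for *Sesn2*. DDIT4, also called REDD1, restrains mTORC1 and is induced by hypoxia, glucocorticoids and other stresses as well as by ATF4. *Ddit4* (chr10:59949669-59951834, minus strand) was at an RPKM of 64.5 in the control library and 40.4 in the Eomes library, from about 2010 and 1272 reads. Its log2 ratio was -0.67 (-0.77 to -0.57), or 1.60-fold lower. It was the 1 member outside the central 95% of the 500 genes closest in mean RPKM (-0.41 to 0.40), of which 1.20% had a lower ratio. A central 95% leaves some genes out by construction. The 1 of 38 members outside is no more than that share, so this count is no result about the members. The log2 ratio of *Ddit4* was -0.59 after centring by GC content, just past the threshold of 0.58. The start of *Ddit4* also differs between RefSeq and GENCODE. The 186 bases of the RefSeq promoter that lie before both starts are shown since it is the member that stood furthest from its control level, and they hold neither TGATGNAA nor AGGTGTGA and are 69.9% G or C.
*Ddit4*, chr10:59951835-59952020, minus strand: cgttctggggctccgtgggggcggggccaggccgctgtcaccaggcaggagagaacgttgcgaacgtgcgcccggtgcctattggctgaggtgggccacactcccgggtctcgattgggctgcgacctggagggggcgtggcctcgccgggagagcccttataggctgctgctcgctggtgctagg

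*Nupr1* (chr7:126623249-126630861, minus strand) encodes a small chromatin protein induced by stress. Its RPKM was 6.86 in the control library and 4.38 in the Eomes library, a log2 ratio of -0.65 (-1.12 to -0.18), or 1.57-fold lower. Only about 101 and 65 reads stood behind these values. At this level the spread is wide, and 6.20% of the 500 genes of like level were lower. The log2 ratio was -0.55 after centring by GC content, no longer past 1.5-fold. *Trib3* (chr2:152337422-152344032, minus strand), a pseudokinase that acts back on ATF4 and CHOP, was at 10.1 and 7.02, a log2 ratio of -0.53 (-0.76 to -0.29). Of genes of like level 4% were lower than *Trib3*.

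The other regulators stayed closer to control. *Chac1*, which degrades glutathione and is a target of ATF4 and CHOP, was the lowest member in both libraries, at 4.12 and 3.57, and its interval held 0 (-0.60 to 0.19). *Sesn2*, a sensor of leucine upstream of mTORC1, was at 34.3 and 31.5, a log2 ratio of -0.12 (-0.21 to -0.03). Its ratio was -0.02 after centring by GC content.

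**Figure D4:**
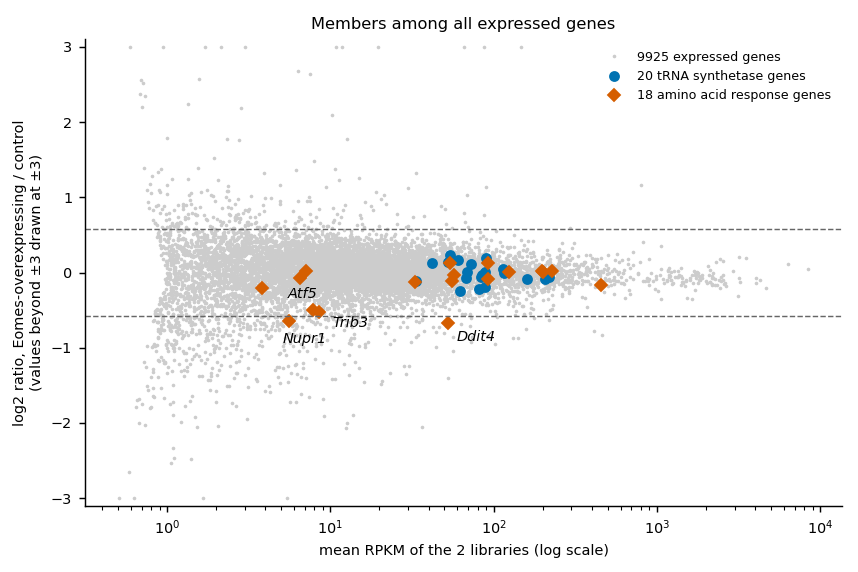
Log2 ratio of Eomes-overexpressing over control against the mean RPKM of the 2 libraries (log axis) for 9925 expressed genes (grey points), the 20 synthetase genes (circles) and the 18 response genes (diamonds), with dashed lines at 1.5-fold and values beyond 3 drawn at the edge. The spread of all genes narrows as the level rises, and *Ddit4* at -0.67 lies below the bulk of genes of its level while *Nupr1*, *Trib3* and *Atf5* lie at a level where the spread is wider.

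The 4 genes for asparagine and serine synthesis had a median log2 ratio of -0.10. *Asns*, asparagine synthetase, was at an RPKM of 95.6 in the control library and 90.0 in the Eomes library, a log2 ratio of -0.09 (-0.16 to -0.02). *Phgdh*, the first enzyme of serine synthesis, was the highest of the 38 genes at 482.9 and 430.1, a log2 ratio of -0.17 (-0.20 to -0.13). *Psat1*, the second enzyme, was at 196.8 and 199.2, a log2 ratio of 0.02 (-0.02 to 0.06). *Psph*, the last enzyme, was at 58.2 and 53.6, a log2 ratio of -0.12 (-0.21 to -0.02). *Phgdh* thus stood 8.29-fold above *Psph* in control and 8.02-fold in Eomes-overexpressing OT-I cells. Values of *Phgdh* and *Psph* are uncertain, since 63.1% of the 50-base stretches of *Phgdh* recur in its pseudogenes and 23.9% of those of *Psph* recur in *Cct6a* transcripts.

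The one-carbon enzymes had log2 ratios above 0 in 4 of 4 cases, with a median of 0.07, and none was near 1.5-fold. Of all 9925 expressed genes, 4887 lay above 0. After centring by GC content the ratios of these enzymes ran from 0.03 for *Mthfd2* to 0.20 for *Mthfd1l*. *Shmt2*, which releases a one-carbon unit from serine in mitochondria, was at 226.5 in the control library and 230.1 in the Eomes library. *Shmt1*, its cytosolic form, was at 88.1 and 95.9, a log2 ratio of 0.12 (0.07 to 0.18). The mitochondrial form exceeded the cytosolic form 2.57-fold in the control library and 2.40-fold in the Eomes library. *Mthfd2*, a mitochondrial folate enzyme raised in dividing cells, was at 124.6 and 125.6, a log2 ratio of 0.01 (-0.05 to 0.07). *Mthfd1l*, which makes formate from the mitochondrial one-carbon unit, was at 51.6 and 56.4, a log2 ratio of 0.13 (0.06 to 0.20).

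Proline synthesis was close to control in both measured genes. *Aldh18a1*, the first enzyme from glutamate, was at 57.9 and 56.7, a log2 ratio of -0.03 (-0.10 to 0.04). *Pycr1*, the last enzyme in mitochondria, was at 6.68 and 6.33, a log2 ratio of -0.08 (-0.30 to 0.15), and its interval allowed a change of either sign.

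Taken as a list, the 18 response genes had 7 log2 ratios above 0 and 11 below, and their median was -0.08, or -0.01 after centring by GC content. The 14 genes other than *Ddit4*, *Nupr1*, *Trib3* and *Atf5*, which were set aside after their values were seen, lay between -0.21 and 0.13 with a median of -0.01. The summed RPKM of the 18 genes was 1726 in the control library and 1645 in the Eomes library, a change of -4.66%. In bulk RNA, fewer cells that express a gene and less of its RNA per cell cannot be told apart.

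Other genes of the pathway, in 8 lists with 83 expressed genes, gave 2 genes past 1.5-fold on the higher side and 5 on the lower side (8.43%). This is near the 7.65% of all expressed genes. Of the 2 on the higher side, *Mthfd2l* reached an RPKM of 1 only in the Eomes library. None of the 17 mitochondrial synthetases was past 1.5-fold, and their median log2 ratio was -0.0064 (range -0.31 to 0.18). Their most abundant genes were *Iars2*, at 29.8 in the control library and 30.4 in the Eomes library, and *Yars2*, at 24.8 and 27.0. The scaffold genes of the synthetase complex were likewise near control, with *Aimp1* at 76.4 and 82.0, *Aimp2* at 105.7 and 96.5 and *Eef1e1* at 82.2 and 88.1. Among 9 genes around eIF2α none was past 1.5-fold. *Eif2s1*, which encodes eIF2α itself, was at 71.3 and 81.2, and *Gcn1l1*, a partner of GCN2, at 39.8 and 40.9. *Eif2ak4*, which encodes GCN2, was at 4.87 and 5.28, a log2 ratio of 0.12 (-0.07 to 0.30).

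Among 11 other expressed genes linked to ATF4, 3 were past 1.5-fold (27.3%, beside 7.65% of all expressed genes), 1 higher and 2 lower. The list is small and was chosen with earlier results of these data known, so this count is no result about it. *Atf3*, a stress-induced factor of the same family, was at 33.4 in the control library and 13.3 in the Eomes library, a log2 ratio of -1.33 (-1.49 to -1.17). None of the 500 genes of like level was lower. *Atf3* was named because it was past 1.5-fold, so this rank comes from the value that selected it. *Cth*, the cystathionine γ-lyase that makes cysteine, was at 7.22 and 3.00, a log2 ratio of -1.27 (-1.62 to -0.91). *Jdp2*, a repressor of AP-1 and ATF sites, was at 4.26 and 7.52, a log2 ratio of 0.82 (0.49 to 1.15). The most abundant genes of this list, *Eif4ebp1*, an inhibitor of cap-dependent translation, and *Got1*, an aspartate aminotransferase, were at 85.7 and 71.0 and at 55.5 and 58.8.

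Of the 11 expressed amino acid transporters, 1 was past 1.5-fold (9.09%, beside 7.65% of all expressed genes). *Slc7a5*, the light chain of the transporter of large neutral amino acids, was at 220.9 in the control library and 216.8 in the Eomes library, and its heavy chain *Slc3a2* at 151.6 and 144.2. *Slc1a5*, a glutamine transporter, was at 151.2 and 132.1. *Slc38a2*, a transporter of small neutral amino acids, was at 23.9 and 33.0, a log2 ratio of 0.46 (0.38 to 0.55). It lay above the central 95% of the 500 genes of like level (-0.47 to 0.38). Such a range leaves some genes out by construction, and *Slc38a2* was named after its value was seen. Its log2 ratio was 0.32 after centring by GC content. *Slc43a1* was the gene past 1.5-fold, at 2.96 and 1.86. In the 15 other expressed folate and one-carbon genes 3 were past 1.5-fold (20%, beside 7.65% of all expressed genes), 1 higher and 2 lower. This list too is small and was chosen with earlier results known, so the count is no result about it. *Gldc*, the decarboxylase of the glycine cleavage system, was at 19.6 and 8.58, a log2 ratio of -1.20 (-1.34 to -1.05). *Mthfs* was at 9.49 and 5.32. *Mthfd2l* was at 0.92 and 1.41, from about 35 and 55 reads, a log2 ratio of 0.62 (0.0037 to 1.30). It counted as expressed only through the Eomes library, where it was the higher. *Atic*, of purine synthesis, was at 182.5 and 169.9 and *Ahcy*, of the methionine cycle, at 163.6 and 148.1. None of the 8 proline, glutamine and glutamate genes and none of the 9 expressed sestrin and amino acid sensing genes was past 1.5-fold. *Got2* was at 265.4 and 239.0 and *Glud1*, glutamate dehydrogenase, at 85.5 and 83.0. *Rraga* and *Rragc*, the Rag GTPases that bring mTORC1 to the lysosome, were at 42.5 and 46.0 and at 28.5 and 31.1.

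**Figure D5:**
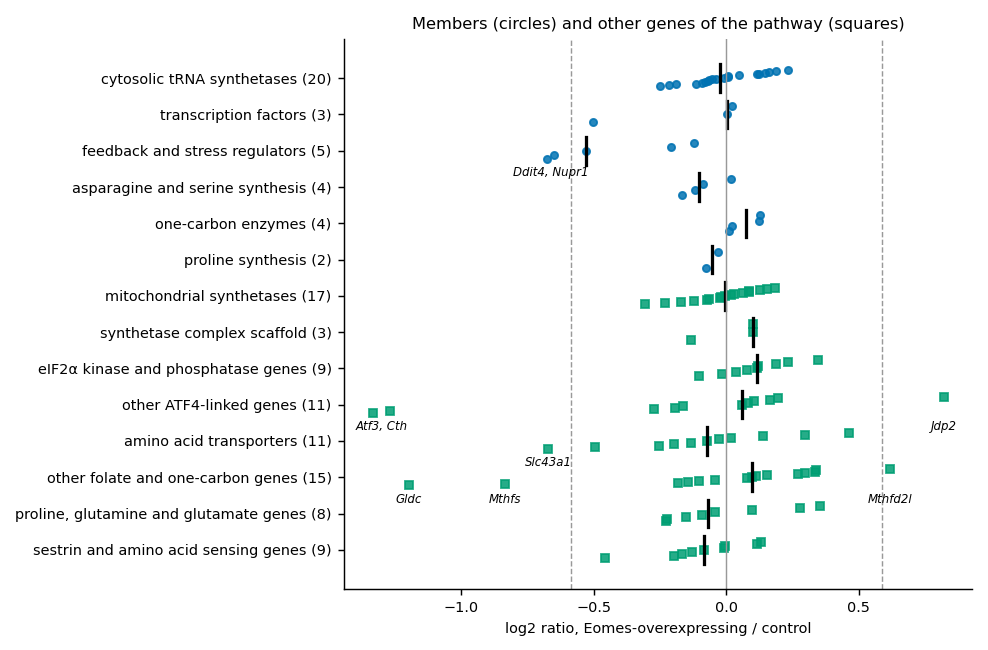
Log2 ratio of Eomes-overexpressing over control for each expressed gene, with the 38 members by role as circles and the other genes of the pathway by list as squares, the number of genes in parentheses, a black bar at each median and dashed lines at 1.5-fold. Every synthetase list stays inside the dashed lines, and the genes named on the plot, from *Atf3* at -1.33 to *Jdp2* at 0.82, are those outside them.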

How the data were processed

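Total RNA of the 2 cultures was sequenced for the authors on an Illumina HiSeq instrument, 1 library each. Per the labels, reads were filtered with SOAPnuke, aligned to mm10 with HISAT and Bowtie2, and quantified with RSEM. For each symbol the deposited value is FPKM, called RPKM in the authors' notes, printed to 2 decimals. Strand and scaling between libraries are not given in the sources used here.

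Symbols that had become dates, 20 for control and 19 for Eomes, were dropped, and unlisted values were set to 0.01 before log2 ratios were taken. Depth came from the steps of low values (438 and 452 genes, of which 75.8% and 73.5% lay within 0.2 of a whole number of reads) and GENCODE vM21 lengths of the principal transcript, known for 99.0% of genes. RPKM times length, scaled to that depth, gave approximate reads for Clopper-Pearson intervals. The depth also depended on the bases taken off each length (20 for control and 30 for Eomes here), which the intervals do not cover. GC centring used 20 bins of expressed genes. Members were all named, and other genes were named when past 1.5-fold or among the 2 most abundant of their list, with *Eif2ak4*, *Aimp1*, *Slc1a5* and *Slc38a2* added after their values were seen. Members and lists were chosen with earlier results of these data known. Alternatives are given in the closing section. Steps were tested on simulated data. Python 3.11.15, numpy 2.4.6, pandas 2.3.3, scipy 1.17.1 and matplotlib 3.10.9 were used.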

Additional observations from a re-analysis of the deposited data

How the results depend on the processing

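With 1 library per group, no library could be left out, and no difference has a replicate check. No paired analysis was possible because each group holds 1 library. The synthetases had 0 genes past 1.5-fold under every alternative run. The 2 response genes past 1.5-fold (both lower) became 1 with a pseudocount of 1, 1 after centring by GC content (*Ddit4*) and 0 at a 2-fold threshold. The 759 expressed genes past the threshold (244 higher, 515 lower) became 403 (118 and 285) with a pseudocount of 1, 3444 (1356 and 2088) with no minimum RPKM, 308 (95 and 213) with a minimum of 5 and 244 (69 and 175) at a 2-fold threshold. For all 38 members the log2 ratio stayed within its counting interval with a pseudocount of 0.1 or 1 and under scaling to TPM, to the median or by a trimmed mean of log ratios. Scaling to TPM moved the median of all expressed genes by 0.03. The median of the synthetases, -0.02, was 0.0088 under scaling to TPM and 0.000082 after GC centring, so its sign depended on the scaling. GC centring moved 17 of 38 members out of their interval and changed the sign of 10, none of them past 1.5-fold, with the largest shift at *Dars* (0.22). At *Nupr1*, *Chac1* and *Ddit3* the low read counts limit the precision.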
